A study of Mus musculus with 15 samples.

Results

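The comparison described here is that of livers from PPARα-null and wild-type mice that received only the vehicle, corn oil. It takes 8 of the 15 arrays of the series, 4 from each genotype, and covers the 19938 genes with a probe set of a single gene symbol. The series as a whole concerns the action of di(2-ethylhexyl) phthalate (DEHP), a plasticizer, on PPARα and on the constitutive androstane receptor CAR in mouse liver. The null mice were 129S4/SvJae-Pparatm1Gonz/J and the wild-type mice 129S1/SvlmJ, both bought from 1 supplier and then kept as inbred animals on a 129/Sv background. The targeted allele of Ppara is in the germline, so all cells of the null mice carry it. All animals were males aged 7.5 months (± 2.5 weeks) on the same chow, and the 8 animals compared had received corn oil by gavage on 4 days. The other arrays came from 4 wild-type and 3 null mice that received DEHP at 1150 mg/kg/day in corn oil for 4 days, and these 7 arrays serve below as a separate pair of groups. Because the 2 genotypes also differ in substrain, an effect of the missing receptor and an effect of the substrain cannot be told apart in any difference below.

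PPARα is a nuclear receptor that binds fatty acids and, paired with the retinoid X receptor, switches on genes in the liver. Its known targets encode enzymes of fatty acid oxidation in peroxisomes and mitochondria, of ω-hydroxylation in the endoplasmic reticulum, and proteins of lipid droplets and fatty acid uptake. The receptor is best known for the fasting response and for the response to peroxisome proliferators such as DEHP. The comparison under corn oil asks how far liver mRNA differs without such a compound.

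Each array was hybridized with liver RNA of 1 animal, and animals are called here by the number in their label, WT-52 to WT-55 for wild type and KO-115 to KO-118 for null. Median intensity ran from 44.99 to 47.53 over the 8 arrays. Across probe sets, which are not independent replicates, log2 values correlated at r = 0.9892 to 0.9915 within wild type, 0.9876 to 0.9907 within null and 0.9853 to 0.9903 between genotypes. The first principal component of these 8 arrays held 30.52% of the variance, with all wild-type animals on one side and all nulls on the other. KO-118 stood apart from the other nulls on the second component (18.45% of the variance), and its weight in a fit with array weights was 0.511. Of 15 measured hepatocyte markers none was called between the genotypes, and their summed intensity was 142673 to 144452 in wild type and 139669 to 146481 in null. The receptor gene itself, Ppara, read 9.64, 9.86, 9.88 and 9.73 log2 units in wild-type animals and 8.99, 9.24, 9.10 and 9.01 in nulls, so that the groups did not overlap but a signal remained in the nulls.

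A gene is called higher or lower in null where the adjusted p from limma, corrected over all 19938 genes, was below 0.05. Differences are null minus wild type in log2 units ± standard error, with n = 4 animals against 4. The standard error and the p-value rest on a spread per gene pooled over all arrays of the series, DEHP included. They can thus be smaller or larger than the corn oil animals alone would give. For Cyp4a10 the SDs in wild type and null were 0.48 and 0.46 under corn oil and 0.04 and 0.15 under DEHP. For Acot1 they were 0.33 and 0.05 under corn oil and 0.68 and 0.5 under DEHP. By this rule 237 genes, or 1.19% of those tested, were called, 128 (0.642%) higher and 109 (0.547%) lower in null. At least 2-fold differences were found in 43 of them, 19 higher and 24 lower. In 235 of the 237 the animals of the genotypes did not overlap, which held for 1540 genes (7.72%) of all, with null above in 4.06% and below in 3.67%. The median difference over all genes was -0.008, and 2383 genes had an unadjusted p below 0.05. The shares called higher and lower and this median are the values to set beside the corn oil list counts and list medians below. When each animal in turn was left out, 125 genes kept their call in all 8 fits and 2 in none. The number of genes higher in null was 79 without KO-115, 82 without WT-53 and 83 without WT-54.

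The largest differences in the liver of the nulls were in fatty acid ω-hydroxylases. Cyp4a31, Cyp4a10 and Cyp4a14, which oxidize the terminal carbon of fatty acids, were 20.2-, 10.8- and 9.76-fold lower in null. Cyp4a10 read 8.38, 9.27, 8.62 and 8.16 in WT-52 to WT-55 and 5.87, 4.98, 5.01 and 4.86 in KO-115 to KO-118. The lowest wild-type animal thus stood above the highest null, KO-115, and the difference was -3.43 ± 0.21 (adjusted p = 2.77e-07). Cyp4a31 read 7.83, 8.53, 8.23 and 7.70 in wild type and 4.81, 3.71, 2.79 and 3.65 in null, a difference of -4.34 ± 0.36 (adjusted p = 4.95e-06). Cyp4a14 read 8.12, 9.52, 8.34 and 7.87 in wild type and 6.74, 4.99, 4.74 and 4.22 in null, a difference of -3.29 ± 0.44 (adjusted p = 0.000659). In all 3 genes WT-53 was the highest animal and KO-115 the highest null, and the groups did not overlap. Mean intensities in null were 15.1 for Cyp4a31, 37.8 for Cyp4a10 and 46.1 for Cyp4a14, below or near the median of an array. With 32 added to each intensity before the logarithm, a setting that damps differences between dim values, the differences were -2.70, -2.62 and -2.43 for Cyp4a31, Cyp4a10 and Cyp4a14. The genes are neighbours on chromosome 4 and close relatives in sequence, and the labels do not say whether their probes read each other's transcripts.

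Of the 11 measured genes of microsomal ω-hydroxylation these 3 were lower, none was higher, and the median was -0.35 against -0.008 for all genes. The male-type enzymes Cyp4a12a and Cyp4a12b, far more abundant in these livers, read -0.28 ± 0.11 (adjusted p = 0.259) and -0.35 ± 0.13 (adjusted p = 0.274). KO-115 stood with the wild-type animals for these, at 12.31 for Cyp4a12a where wild type ran from 12.13 to 12.32 and the other nulls from 11.78 to 11.92. For Cyp4f14, a relative that oxidizes eicosanoids, the difference was -0.03 ± 0.08 (adjusted p = 0.945).

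**Figure D1:**
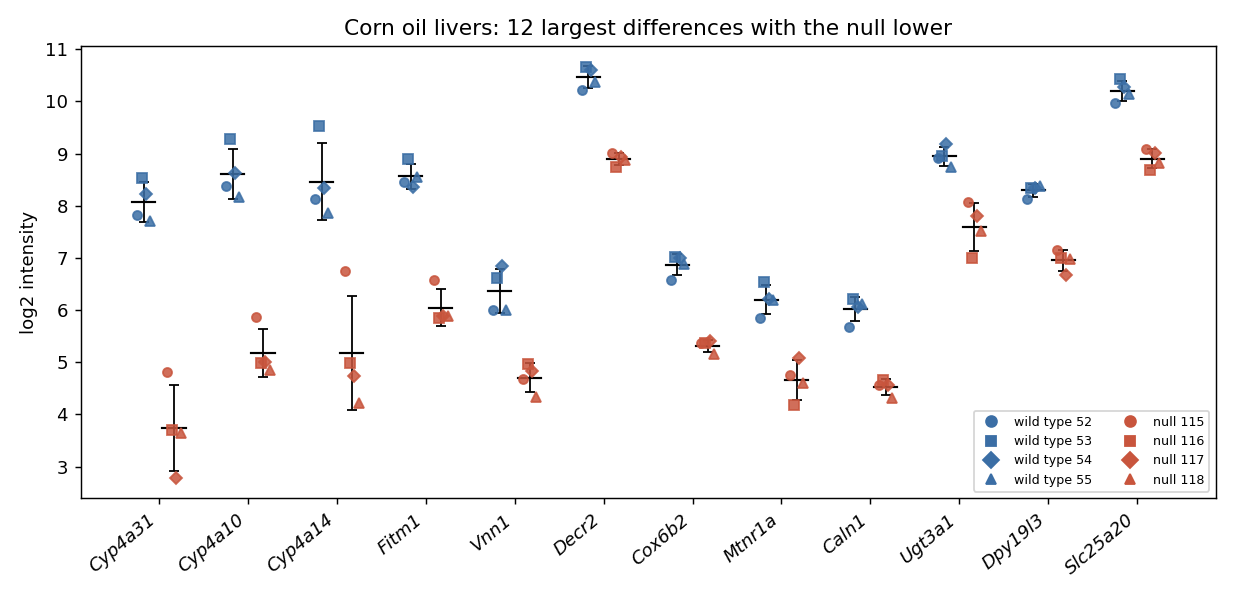
Log2 intensity of the 12 genes with the largest differences in which null was lower, with 1 point per animal (blue, WT-52 to WT-55; red, KO-115 to KO-118), the mean as a bar and the SD as whiskers (n = 4). The 12 were chosen among called genes whose groups do not overlap. KO-115 is the highest null for 8 of them (Cyp4a31, Cyp4a10, Cyp4a14, Fitm1, Decr2, Ugt3a1, Dpy19l3 and Slc25a20).

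Among other known targets of PPARα, 4 of 62 measured genes were lower and 2 higher in null, with a median of -0.05. The count of higher members was 4 without KO-116, 3 without WT-54 and 4 with the corn oil arrays alone, and without dim genes 8 were lower and 5 higher. Fitm1, a protein of the endoplasmic reticulum that helps to form lipid droplets, read 8.45, 8.89, 8.35 and 8.55 in wild type and 6.58, 5.85, 5.88 and 5.88 in null. It was 5.72-fold lower (-2.52 ± 0.22, adjusted p = 1.12e-05), with KO-115 above the other nulls but below all wild-type animals. The pantetheinase Vnn1, which recycles the coenzyme A precursor pantothenate, ran from 6.0 to 6.84 in wild type and from 4.33 to 4.97 in null. The difference of Vnn1 was -1.66 ± 0.27 (adjusted p = 0.00392) and was not called with 32 added to the intensities (-0.98, adjusted p = 0.0719). Plin5, a coat protein of lipid droplets that links them to mitochondria, ran from 7.77 to 8.06 in wild type and from 6.65 to 6.91 in null (-1.11 ± 0.08, adjusted p = 1.45e-06). Retsat, which saturates retinol, was among the brighter members, at 11.10, 11.66, 11.40 and 11.14 in wild type and 10.13, 9.99, 9.72 and 10.25 in null (-1.30 ± 0.19, adjusted p = 0.00169).

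Genes of peroxisomal fatty acid oxidation and biogenesis were lower in null for 8 of 35 measured members and higher for none, with a median of -0.11. Over all genes the share called lower was 0.547% and the median -0.008. Decr2, the peroxisomal dienoyl-CoA reductase that handles unsaturated chains, read 10.21, 10.66, 10.60 and 10.37 in wild type and 9.01, 8.75, 8.94 and 8.87 in null. That is a 2.97-fold lower level with a wide gap between the groups (-1.57 ± 0.14, adjusted p = 9.63e-06). Pxmp4, a peroxisomal membrane protein, ran from 9.28 to 9.58 in wild type and from 8.05 to 8.30 in null (-1.23 ± 0.08, adjusted p = 2.77e-07). Eci2 and Ech1, isomerases that shift double bonds during the oxidation of unsaturated fatty acids, were lower by 2.18-fold (-1.12 ± 0.14) and 1.93-fold (-0.95 ± 0.10). The bifunctional protein Hsd17b4 (-0.49 ± 0.08), the thioesterase Acot8 (-0.49 ± 0.10), the biogenesis factor Pex16 (-0.38 ± 0.08) and the 2-hydroxyacyl-CoA lyase Hacl1 (-0.36 ± 0.08) were lower by smaller margins. The count of lower members was 5 without WT-53, 5 without WT-54 and 5 without KO-116. Pex16 was called in none of the 8 fits that left out 1 animal, with adjusted p up to 0.103 without KO-116.

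Genes of mitochondrial fatty acid oxidation and ketone bodies were lower for 9 of 30 measured members, with a median of -0.16, while 1 was higher. The shares over all genes were 0.547% lower and 0.642% higher. Slc25a20, the carrier that brings acylcarnitines into mitochondria, read 9.96, 10.42, 10.28 and 10.14 in wild type and 9.08, 8.68, 9.01 and 8.82 in null. Its level was 2.47-fold lower in null (-1.30 ± 0.14, adjusted p = 6.96e-05). Cpt2, which rebuilds acyl-CoA on the inner membrane, ran from 9.54 to 9.78 in wild type and from 8.46 to 8.79 in null (-0.97 ± 0.11, adjusted p = 0.000139). These are consecutive steps of the carnitine shuttle, and both showed a gap between the groups larger than the spread within them. The acyl-CoA dehydrogenases Acadvl for very long (-0.91 ± 0.07), Acadl for long (-0.72 ± 0.09) and Acads for short chains (-0.51 ± 0.07) were lower as well. Acadm for medium chains read 0.04 ± 0.08 (adjusted p = 0.899). The isomerase Eci1 (-0.91 ± 0.11), the β-subunit of the trifunctional protein Hadhb (-0.35 ± 0.08), and the electron carriers Etfdh (-0.69 ± 0.09) and Etfb (-0.64 ± 0.06) completed the lower members. Hadhb was called in 1 of 8 such fits, with adjusted p up to 0.141 without WT-54.

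The member that was higher is Pdk4, a kinase that shuts off pyruvate oxidation and is itself a known PPARα target. It read 6.15, 5.73, 5.72 and 5.50 in wild type and 7.18, 6.24, 7.15 and 6.62 in null (1.02 ± 0.23, adjusted p = 0.0433). The lowest null, KO-116, was near the highest wild-type animal, and it was called in 2 of 8 fits without 1 animal, with adjusted p up to 0.135 without KO-115. It was also lost with 32 added to the intensities (adjusted p = 0.0875).

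Several well known PPARα targets, chosen for mention after their values were seen, were not called under corn oil. Cpt1a, the entry step of mitochondrial oxidation, ran from 10.34 to 10.78 in wild type and from 10.69 to 10.86 in null (0.18 ± 0.13, adjusted p = 0.627). Ehhadh, the peroxisomal bifunctional enzyme that rises strongly with peroxisome proliferators, ran from 9.90 to 10.16 and from 9.64 to 10.19 (-0.15 ± 0.15, adjusted p = 0.773). The groups overlapped in both genes. Differences were -0.07 ± 0.06 for the catalase gene Cat, -0.13 ± 0.08 for the fatty acid binding protein Fabp1, -0.17 ± 0.21 for the droplet protein Plin2 and 0.53 ± 0.16 for the fatty acid transporter Cd36. The secreted factors Fgf21 and Angptl4 had all null animals below all wild-type animals, with -0.62 ± 0.17 (adjusted p = 0.109) and -0.80 ± 0.26 (adjusted p = 0.180), and the test did not call them. Such a separation with null below was found in 3.67% of all genes. For Fgf21 the nulls lay within 5.67 and 5.79 and the wild-type animals between 6.0 and 6.88.

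The promoters of the lower lipid genes were searched for the element that PPARα binds with its partner, a direct repeat of AGGNCA with 1 base of any kind between the copies. Both strands were searched, from 250 bases before to 50 after each start in the RefSeq promoter table (GRCm38.p6). It was found in the window of 64 of 15563 tested genes with an entry (0.411%), in 0 of 90 genes lower in null and in 2 of 98 higher in null, the immunoglobulin family gene Igsf23 and the chemokine gene Ccl6. A search for a single copy, AGGTCA, on both strands of the 150 bases before the start was added after that result was seen. It was present in 8.67% of all these genes, in 7 of 90 lower genes (7.78%) and in 12 of 98 higher ones (12.2%). Of the 24 lower members of the 4 lists of lipid genes, 19 had an entry, and 1 of them, Acadvl, held this copy. The 5 with no entry, and so not searched, were Cyp4a10, Cyp4a14, Cyp4a31, Vnn1 and Hsd17b4. The 150 bases before the start are shown for Acadvl, with that copy in capitals, and for Fitm1 and Slc25a20, the members with the largest differences in their lists that have an entry outside the peroxisomal list. They lie at chr11:70015429-70015578 on the minus strand, chr14:55575524-55575673 on the plus strand and chr9:108661986-108662135 on the plus strand.
Acadvl: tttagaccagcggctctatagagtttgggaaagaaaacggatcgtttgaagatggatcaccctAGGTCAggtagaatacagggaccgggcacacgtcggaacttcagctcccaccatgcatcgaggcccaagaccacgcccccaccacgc
Fitm1: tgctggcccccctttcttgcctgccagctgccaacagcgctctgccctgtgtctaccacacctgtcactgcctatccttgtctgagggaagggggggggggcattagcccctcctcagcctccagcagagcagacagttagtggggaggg
Slc25a20: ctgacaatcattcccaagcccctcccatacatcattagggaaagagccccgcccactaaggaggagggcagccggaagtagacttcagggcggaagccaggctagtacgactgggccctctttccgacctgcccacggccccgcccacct
A match is a description of letters in this window, and no match says only that these letters are not in it.

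Acot1 and Vldlr, of the list of other PPARα targets, and Acacb and Pparg, of the list of lipogenesis and glycerolipid synthesis, were higher in null. Acot1, a cytosolic acyl-CoA thioesterase and otherwise a PPARα target, read 6.80, 7.57, 7.36 and 7.06 in wild type and 8.71, 8.71, 8.77 and 8.81 in null. The 4 nulls were nearly equal and well above the wild-type animals, a 2.94-fold difference (1.56 ± 0.27, adjusted p = 0.00689). Its close relative Acot2 read 0.78 ± 0.27 (adjusted p = 0.226), and whether probes of one gene also read the other was not tested. Acacb, the acetyl-CoA carboxylase whose product malonyl-CoA blocks mitochondrial fatty acid uptake, read 7.18, 6.92, 7.0 and 6.85 in wild type and 8.21, 8.18, 8.17 and 8.29 in null (1.23 ± 0.16, adjusted p = 0.000513). Pparg, the adipocyte relative of PPARα, ran from 6.44 to 6.81 in wild type and from 7.57 to 8.11 in null (1.14 ± 0.12, adjusted p = 5.28e-05). Vldlr, a receptor that takes up triglyceride-rich lipoproteins, was 2.03-fold higher (1.02 ± 0.12, adjusted p = 0.000239). Acacb and Pparg were the 2 called members of 40 measured genes of lipogenesis and glycerolipid synthesis, whose median was -0.01. In that list the fatty acid synthase Fasn read -0.05 ± 0.16 (adjusted p = 0.955). The desaturase Scd1 read -1.24 ± 0.58 (adjusted p = 0.415), with KO-117 at 9.21 against 11.12 to 11.56 in the other nulls and 11.87 to 12.39 in wild type.

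The largest difference with null higher was in Serpinb1a, an inhibitor of neutrophil proteases. It read 5.16, 5.21, 5.33 and 5.01 in wild type and 8.35, 7.92, 8.45 and 8.71 in null. All nulls stood far above all wild-type animals, a 9.06-fold difference (3.18 ± 0.19, adjusted p = 2.77e-07, and 2.40 with 32 added to the intensities). The B cell adaptor gene Blnk ran from 4.86 to 5.38 in wild type and from 6.06 to 7.14 in null (1.57 ± 0.21, adjusted p = 0.00067). Cyp2d12, of a cytochrome family that metabolizes drugs, ran from 5.44 to 6.29 and from 6.88 to 7.64 (1.52 ± 0.27, adjusted p = 0.00733), and Mtmr11, of the myotubularin family, from 5.28 to 5.60 and from 6.25 to 7.06 (1.19 ± 0.14, adjusted p = 0.000249). For Blnk, Cyp2d12 and Mtmr11 the wild-type intensities were near the median of an array, and with 32 added the differences of Blnk and Cyp2d12 were 1.05 and 1.13. The largest differences with null lower outside the lipid lists were in Cox6b2, an isoform of a cytochrome c oxidase subunit (-1.55 ± 0.11, adjusted p = 1.45e-06), the melatonin receptor Mtnr1a (-1.54 ± 0.17), the calcium-binding protein Caln1 (-1.49 ± 0.12), the UDP-glycosyltransferase Ugt3a1 (-1.36 ± 0.19) and Dpy19l3 (-1.34 ± 0.11). Of these Ugt3a1 and Dpy19l3 were the brighter, with mean intensities in wild type of 499 and 314. All 5 were chosen among called genes whose groups did not overlap.

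**Figure D2:**
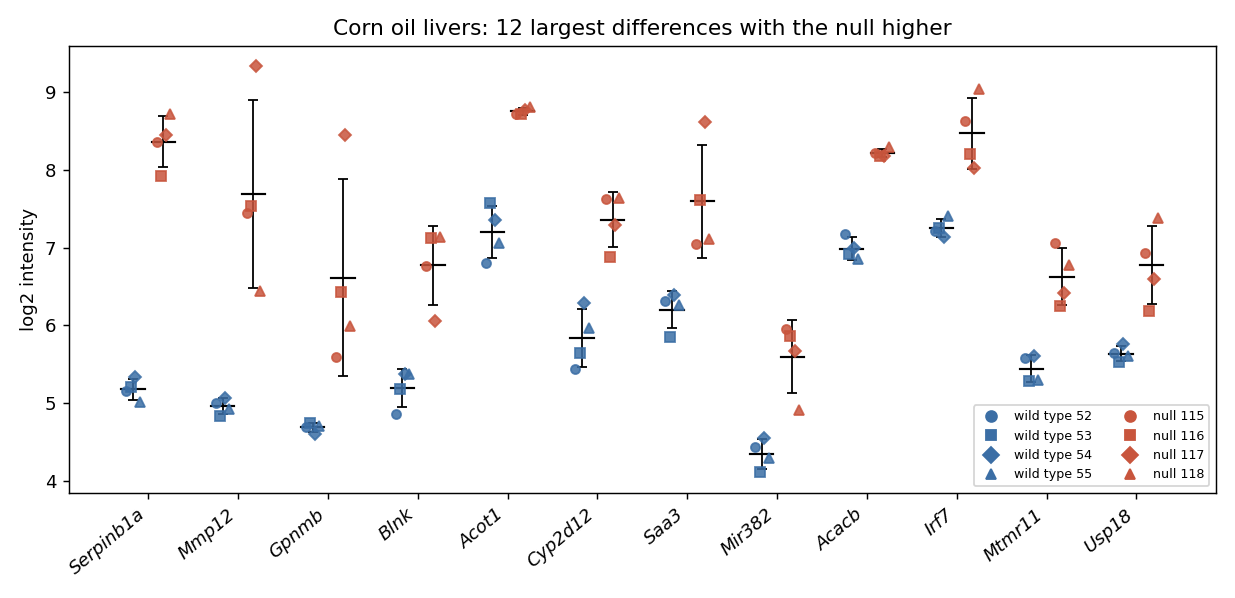
Log2 intensity of the 12 genes with the largest differences in which null was higher, with 1 point per animal (blue, WT-52 to WT-55; red, KO-115 to KO-118), the mean as a bar and the SD as whiskers (n = 4). The 12 were chosen among called genes whose groups do not overlap. The nulls spread widely for Mmp12 (6.44 to 9.33) and Gpnmb (5.59 to 8.44), where KO-117 is the highest, and narrowly for Acot1 (8.71 to 8.81).

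Markers of macrophages were higher in null for 5 of 22 measured genes and lower for none, with a median of 0.33. Over all genes the share called higher was 0.642% and the median -0.008. Mmp12, the elastase of activated macrophages, read 5.0, 4.83, 5.07 and 4.93 in wild type and 7.44, 7.54, 9.33 and 6.44 in null (2.73 ± 0.40, adjusted p = 0.00128). Gpnmb, a glycoprotein of lipid-laden macrophages, read 4.69, 4.75, 4.6 and 4.71 in wild type and 5.59, 6.43, 8.44 and 5.99 in null (1.92 ± 0.40, adjusted p = 0.0262). For both genes every null stood above every wild-type animal, and KO-117 stood above the other nulls. Gpnmb was called in 4 of 8 fits without 1 animal, with adjusted p up to 0.0822 without WT-54. Lysozyme Lyz2 ran from 7.51 to 7.84 in wild type and from 8.33 to 9.09 in null (0.93 ± 0.17, adjusted p = 0.00894). The pore-forming protein Mpeg1 (0.74 ± 0.13, adjusted p = 0.00747) and the monocyte chemokine receptor Ccr2 (0.61 ± 0.14, adjusted p = 0.0423) were the remaining called markers, Ccr2 at mean intensities of 11.7 and 17.6, near the low end of the arrays. Markers of resident Kupffer cells were not called, with Clec4f at 0.12 ± 0.15, Vsig4 at 0.18 ± 0.13 and Timd4 at 0.04 ± 0.13. The pan-macrophage genes Adgre1 and Cd68 read 0.37 ± 0.13 (adjusted p = 0.248) and 0.40 ± 0.14 (adjusted p = 0.214). The summed intensity of the 22 markers was 5837 to 6959 in wild type and 7114 to 8178 in null, with no overlap. The null mean was above the wild-type mean in 21 of the 22 and below it in 1, Slc40a1. This brightest marker had mean intensities of 2556 in wild type and 2431 in null, with overlap (-0.08 ± 0.13, adjusted p = 0.877). The next brightest, C1qc, read 0.28 ± 0.12 (adjusted p = 0.369). In bulk liver, a different number of cells of a type and a different amount of RNA per cell cannot be told apart. The count of called markers was 3 without WT-52, 3 without WT-53 and 3 with 32 added to the intensities, where Mmp12 read 1.96 and Gpnmb was not called (1.24, adjusted p = 0.0999). Gpnmb was also not called in the limma fit of the corn oil arrays alone (adjusted p = 0.108) or with a variance trend (adjusted p = 0.0797).

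Genes induced by interferons were higher in null for 7 of 32 measured members and lower for none, with a median of 0.44. In 31 of the 32, which are not independent of each other, the null mean was above the wild-type mean. The median over all genes was -0.008, and 0.642% of all genes were called higher. Irf7, the master regulator of type I interferon genes, read 7.21, 7.25, 7.13 and 7.41 in wild type and 8.62, 8.20, 8.02 and 9.04 in null (1.22 ± 0.27, adjusted p = 0.036). Usp18, a protease that restrains interferon signalling, read 5.64, 5.53, 5.76 and 5.61 in wild type and 6.93, 6.19, 6.60 and 7.38 in null (1.14 ± 0.20, adjusted p = 0.00817). In both genes KO-118 was the highest animal and the groups did not overlap. Irf7 was not called with 32 added to the intensities (adjusted p = 0.0537) or with a variance trend (adjusted p = 0.0871). Ifi27 (0.92 ± 0.17, adjusted p = 0.00949), the chemokine Cxcl10 (0.89 ± 0.14, adjusted p = 0.00392), the GTPase Gbp3 (0.79 ± 0.18, adjusted p = 0.0425), the antiviral GTPase Mx1 (0.42 ± 0.09, adjusted p = 0.0253) and the immunoproteasome subunit Psmb8 (0.38 ± 0.08, adjusted p = 0.0342) were the others. Ifit1 and Ifit3, classic members that the test did not call, read 0.91 ± 0.24 (adjusted p = 0.0959) and 1.10 ± 0.26 (adjusted p = 0.0544).

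The interferon count moved with single animals. It was 12 without KO-116, 3 without WT-52, WT-53 or WT-54, and 4 without KO-115, KO-117 or KO-118, and it was 4 with 32 added to the intensities. Irf7 was called in 2 of 8 such fits, with adjusted p up to 0.109 without WT-54, Psmb8 in 2 (up to 0.122 without WT-54), Mx1 in 3 (up to 0.0895 without WT-53) and Gbp3 in 1 (up to 0.123 without WT-54). Usp18, Ifi27 and Cxcl10 kept theirs in all 8. The list medians of the animals, as differences from the mean of the 8 arrays, ran from -0.24 to -0.17 in wild type and were 0.26, -0.02, 0.14 and 0.53 in KO-115 to KO-118. KO-118, highest for interferon genes, was the lowest null for the single marker Mmp12 but the highest null for the macrophage list. The macrophage markers moved in the same direction between the genotypes. Their medians per animal were -0.24 to -0.04 in wild type and 0.26, 0.05, 0.08 and 0.27 in KO-115 to KO-118. The nulls stood in the same order in both lists, and the part of the macrophage markers in the interferon result was not tested.

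**Figure D3:**
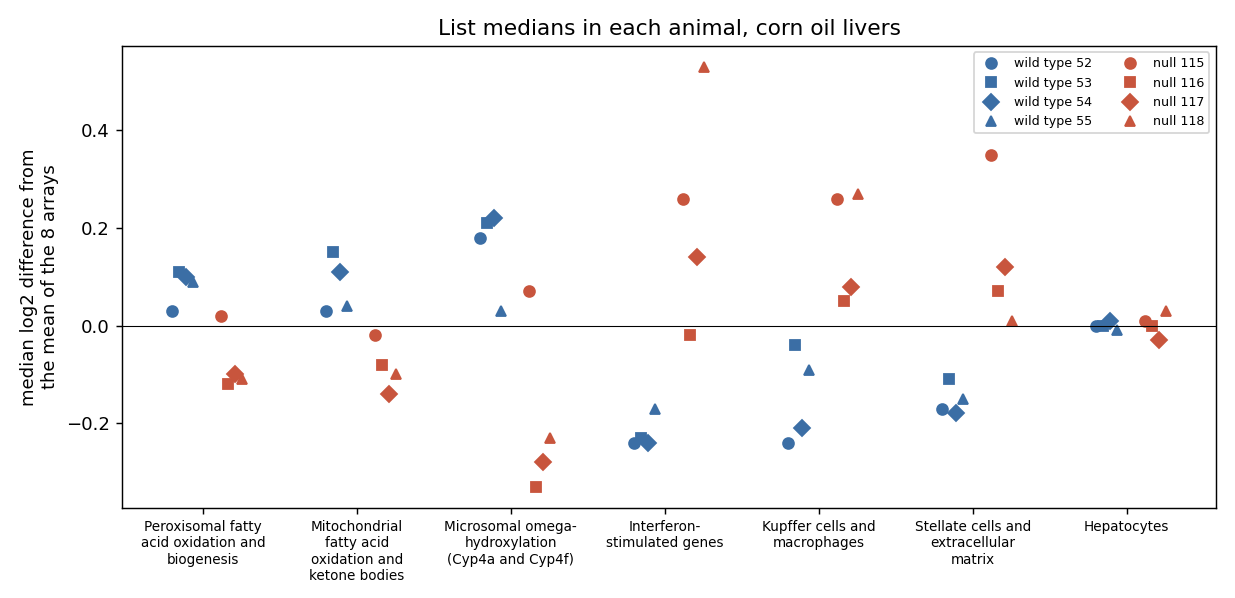
Median log2 difference of a gene list from the mean of the 8 arrays, with 1 point per animal (blue, wild type; red, null), for 7 lists. For the peroxisomal genes KO-115 (0.02) is next to WT-52 (0.03), the interferon genes run from -0.02 to 0.53 in the nulls, and the hepatocyte markers stay between -0.03 and 0.03 in all animals.

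Genes of stellate cells and matrix had a null mean above the wild-type mean in 29 of 29 members, but only 1 was called, Col1a2, a chain of type I collagen. It read 7.01, 6.80, 6.91 and 6.88 in wild type and 8.05, 7.51, 8.07 and 7.06 in null (0.78 ± 0.18, adjusted p = 0.0474). KO-118 was close to the wild-type animals, and it was called in 1 of 8 fits without 1 animal, with adjusted p up to 0.142 without KO-115. The median of the list was 0.29, against -0.008 for all genes, and its summed intensity was 11668 to 12295 in wild type and 13487 to 15783 in null. The members were read in the same animals and are not independent. Under DEHP 10 of the 29 were higher in null and none was lower, with a median of 0.31, where 5.09% of all genes were higher. Without KO-118 5 members were called higher, and without any 1 wild-type animal, KO-115 or KO-117 none was. Col1a1 and Col3a1 read 0.74 ± 0.21 (adjusted p = 0.119) and 0.69 ± 0.18 (adjusted p = 0.0836). Of 28 markers of lymphocytes, natural killer and dendritic cells 1 was called, the leukocyte phosphatase Ptprc (0.57 ± 0.11, adjusted p = 0.0107). None of 22 endothelial, 15 cholangiocyte, 14 neutrophil and 4 erythroid markers was called, nor any of 18 markers of fat, pancreas, gut and muscle.

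Of 31 measured targets of CAR, a nuclear receptor that responds to drugs, 1 was lower and 3 were higher in null, with a median of -0.03. The shares over all genes were 0.547% lower and 0.642% higher. The count of lower members was 2 without KO-115, without KO-118, after quantile normalization and with array weights, and 3 with 32 added to the intensities, without dim genes and with a variance trend. Cyp2b10, the cytochrome by which CAR activity is usually judged, was lower. It read 8.16, 8.24, 8.25 and 8.13 in wild type and 6.76, 6.83, 6.92 and 7.37 in null, a 2.34-fold difference with KO-118 the highest null (-1.23 ± 0.15, adjusted p = 0.000269). The glutathione transferase Gstm2 (0.67 ± 0.12, adjusted p = 0.00817), the tubulin Tuba8 (0.84 ± 0.16, adjusted p = 0.012) and the noncoding RNA Meg3 were the higher members. The receptor gene Nr1i3 for CAR read 0.31 ± 0.09 (adjusted p = 0.124), Nr1i2 for the pregnane X receptor 0.04 ± 0.07 (adjusted p = 0.911) and Rxra, the partner of all 3 receptors, 0.18 ± 0.07 (adjusted p = 0.349). None of 16 targets of the pregnane X receptor, 9 of the aryl hydrocarbon receptor and 33 of the oxidative stress factor NRF2 was called. Cyp3a11, the main pregnane X receptor target, read 0.24 ± 0.09 (adjusted p = 0.278) and Cyp1a2, of the aryl hydrocarbon receptor list, 0.08 ± 0.08 (adjusted p = 0.777).

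Meg3 is the maternally expressed transcript of an imprinted region of chromosome 12 that also holds many microRNA genes. It read 8.78, 8.21, 8.22 and 8.32 in wild type and 9.87, 9.52, 9.45 and 8.96 in null, with the groups apart (1.07 ± 0.19, adjusted p = 0.00758). Of 40 measured microRNA genes between Dlk1 and Dio3, which bound the region, 2 were higher in null (Mir382 and Mir300) and none was lower, with a median of 0.15. Of all genes 0.642% were called higher. Under DEHP 13 of the 40 were higher in null and none was lower, where 5.09% of all genes were higher. Meg3 read 2.11 ± 0.20 there. Mir382 read 4.44, 4.11, 4.55 and 4.29 in wild type and 5.95, 5.86, 5.67 and 4.91 in null (1.25 ± 0.24, adjusted p = 0.014), and Mir300 4.32, 4.12, 3.86 and 4.08 and then 4.88, 4.94, 4.78 and 4.31 (0.63 ± 0.13, adjusted p = 0.0173). In all 3 genes KO-118 was the lowest null, and for Mir300 it was at the level of the highest wild-type animal. Mir382 was not called in 2 of the 8 fits without 1 animal (adjusted p up to 0.0556 without KO-115) and Mir300 in 5 (up to 0.0729 without WT-54), and the Mir382 difference was 0.63 with 32 added to the intensities. Mean intensities of Mir382 were 20.5 in wild type and 50.2 in null, where array medians were 44.99 to 47.53, and Mir300 was dimmer on average. The array reads total RNA, so the values may come from the precursor or the host transcript as well as from mature microRNA. The paternally expressed neighbours Dlk1 (-0.00 ± 0.09, adjusted p = 0.996) and Rtl1 (-0.17 ± 0.09, adjusted p = 0.493) were not called. The mature sequences of both genes in RefSeq (GRCm38.p6) are given with the seed, bases 2 to 8, in capitals, and no 2 of the 4 share a seed. They lie on the plus strand at chr12:109733781-109733802, chr12:109733819-109733840, chr12:109724318-109724339 and chr12:109724363-109724384.
miR-382-5p: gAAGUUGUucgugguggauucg
miR-382-3p: uCAUUCACggacaacacuuuuu
miR-300-5p: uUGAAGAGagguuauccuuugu
miR-300-3p: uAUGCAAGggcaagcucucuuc

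Of 32 genes of bile acid synthesis and transport 5 were lower in null and none was higher, with a median of -0.10. Over all genes the share called lower was 0.547%. The partners Abcg8 (-0.58 ± 0.11, adjusted p = 0.0116) and Abcg5 (-0.50 ± 0.08, adjusted p = 0.00388), which together pump cholesterol into bile, were lower by similar amounts. Abcg5 ran from 9.78 to 10.07 in wild type and from 9.41 to 9.57 in null. The mouse-specific hydroxylase Cyp2c70 (-0.69 ± 0.14, adjusted p = 0.0248), the sterol hydroxylase Cyp27a1 (-0.33 ± 0.06, adjusted p = 0.016) and Klb, the co-receptor of the ileal hormone FGF15 (-0.53 ± 0.12, adjusted p = 0.0442), were the others. Of the 8 fits without 1 animal, 2 called Cyp2c70 and 1 called Klb, with adjusted p up to 0.0875 without KO-117 and 0.136 without KO-115, and 6 called Cyp27a1, up to 0.062 without WT-54. The count of lower members was 2 without WT-54 or KO-117 and 3 without WT-52, WT-53, KO-115 or KO-116. The rate-limiting enzyme Cyp7a1 varied widely, from 8.85 to 9.79 in wild type and from 7.38 to 9.54 in null (-0.42 ± 0.41, adjusted p = 0.762).

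In glucose metabolism Pck1, the rate-limiting enzyme of gluconeogenesis, was higher besides Pdk4, among 29 measured genes with a median of -0.02. It read 11.69, 11.14, 11.17 and 11.74 in wild type and 12.40, 12.07, 12.15 and 12.06 in null (0.74 ± 0.14, adjusted p = 0.014), and was called in 5 of 8 such fits (up to 0.0589 without WT-54). Of 50 genes of the urea cycle and amino acid breakdown, ornithine aminotransferase Oat (0.77 ± 0.15, adjusted p = 0.0167) and glutamine synthetase Glul (0.38 ± 0.08, adjusted p = 0.033) were higher and the histidine pathway enzyme Amdhd1 (-0.32 ± 0.07, adjusted p = 0.0288) lower. A second probe set of Glul read 0.39 and was not called in a limma fit of single probe sets (adjusted p = 0.0717). With 1 animal left out Oat, Glul and Amdhd1 were called in 6, 3 and 2 of 8 fits (up to 0.0633 without KO-115 for Oat, 0.102 without WT-55 for Glul and 0.1 without WT-53 for Amdhd1). In cholesterol synthesis 1 of 21 genes was higher, the synthase Hmgcs1 (0.68 ± 0.14, adjusted p = 0.0276), in 3 of 8 such fits (up to 0.0984 without WT-53).

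Of 26 genes of lipoproteins 2 were higher and 1 lower in null. The apolipoprotein gene Apoa4 read 13.05, 13.13, 13.09 and 13.10 in wild type and 13.52, 13.51, 13.55 and 13.51 in null, a difference of 1.35-fold at high intensity (0.43 ± 0.06, adjusted p = 0.000476). Vldlr, given above, was the other higher member, and the sorting receptor Sort1 was lower (-0.58 ± 0.13, adjusted p = 0.0391), called in 1 of 8 such fits (up to 0.136 without WT-54). Of 33 acute phase genes 1 was higher, Saa3, a serum amyloid made largely outside hepatocytes. It read 6.31, 5.85, 6.39 and 6.26 in wild type and 7.04, 7.61, 8.61 and 7.11 in null, with KO-117 the highest (1.39 ± 0.32, adjusted p = 0.0474), and was called in 2 of 8 such fits (up to 0.138 without WT-53). Of 38 complement and coagulation genes the anticoagulant protein S gene Pros1 (0.57 ± 0.10, adjusted p = 0.00488) and complement factor C2 (0.33 ± 0.08, adjusted p = 0.0474, kept in 1 of 8 fits and up to 0.122 without WT-52) were higher. Among 32 metabolic nuclear receptors and partners the estrogen receptor gene Esr1 was lower (-0.45 ± 0.10, adjusted p = 0.028, kept in 3 of 8 fits and up to 0.0979 without WT-53), besides Ppara, and Pparg was higher.

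No member was called in the lists of oxidative phosphorylation (48 genes), proteasome (34), heat shock and endoplasmic reticulum stress (36), cell cycle and DNA replication (38), iron and BMP signalling (25), core clock (21) or male-biased liver genes (24). The medians of these lists lay between -0.06 for oxidative phosphorylation and 0.13 for the cell cycle. Of 31 female-biased genes 2 were lower, Cyp4a10 and Cyp4a14, which count in the ω-hydroxylation list as well. Of 23 genes of antigen presentation 1 was higher, Psmb8, which counts among the interferon genes too.

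**Figure D4:**
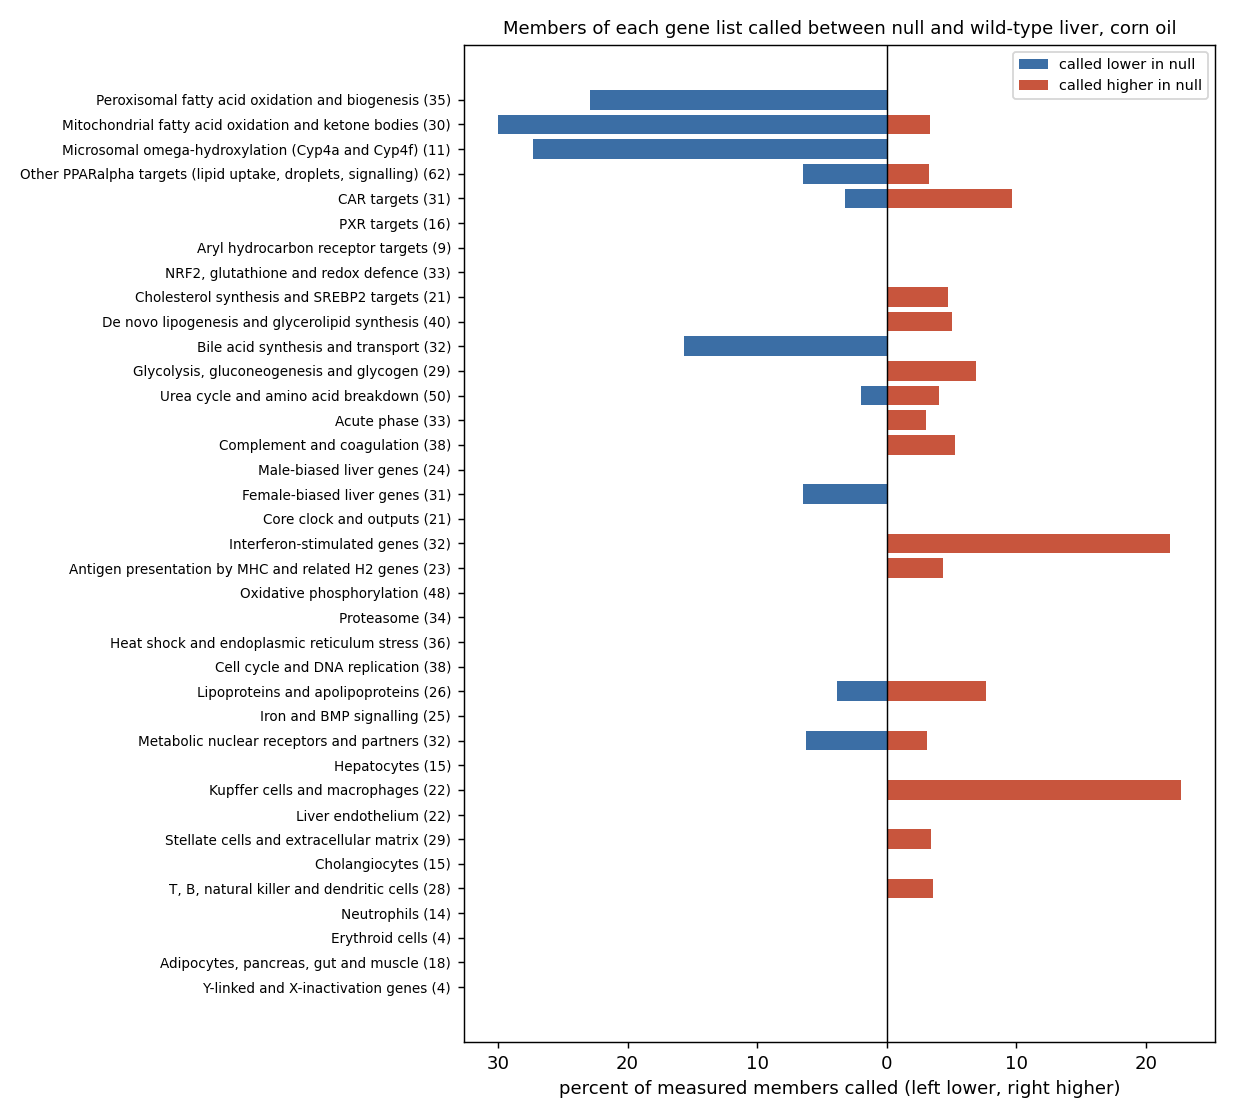
Percent of the measured members of each of 37 gene lists (number measured in parentheses) called lower (blue, to the left) or higher (red, to the right) in null liver under corn oil, adjusted p below 0.05 in limma. The mitochondrial, ω-hydroxylation and peroxisomal lists reach furthest to the left and the macrophage (5 of 22) and interferon (7 of 32) lists furthest to the right, where 0.547% and 0.642% of all genes were called.

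The same genotypes were compared once more in the DEHP-treated animals, 4 wild-type and 3 null, which share no array with the corn oil groups. Both comparisons come from the same fit and use the same estimate of each gene's spread. Their calls are therefore not independent of each other. There 2133 genes (10.7%) were called, 1014 higher and 1119 lower in null. Of the 109 genes lower under corn oil 83 were lower under DEHP as well, 1 was higher and 25 were not called, where 5.61% of all genes were lower. Of the 128 genes higher under corn oil 67 were higher (5.09% of all genes), 1 was lower and 60 were not called. The 150 genes called in the same direction in both are 63.3% of the corn oil calls and 7.03% of the DEHP calls. For the lower genes the median difference was -0.61 under corn oil and -0.66 under DEHP, and for the higher genes 0.57 and 0.42. Both pairs of groups carry the same difference of substrain.

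A test of whether the genotype difference itself differed between DEHP and corn oil called 179 genes (0.898%), among them 18 of the 109 lower and 7 of the 128 higher genes. The genotypes were further apart under DEHP in 15 of the 18, among them the ω-hydroxylases, Vnn1, Retsat, Ech1 and Eci1. Vnn1 read -1.66 under corn oil and -5.38 ± 0.29 under DEHP, and Cyp4a14 -3.29 and -8.13 ± 0.48. The reverse order was seen for Cyp2b10, which read -1.23 under corn oil and -0.14 ± 0.16 (adjusted p = 0.699) under DEHP. Acot1 changed sides, from 1.56 under corn oil to -1.42 ± 0.29 (adjusted p = 0.005) under DEHP. Serpinb1a (2.28 ± 0.21), Blnk (1.45 ± 0.23), Cyp2d12 (1.92 ± 0.29) and Mtmr11 (1.25 ± 0.16) stayed higher in null under DEHP, and Caln1 (-1.63 ± 0.12), Dpy19l3 (-1.36 ± 0.12) and Pxmp4 (-1.15 ± 0.08) stayed lower. Mmp12 and Gpnmb read 0.67 ± 0.43 (adjusted p = 0.395) and 0.60 ± 0.44 (adjusted p = 0.475) there, and the test of the difference from corn oil did not call them (adjusted p = 0.101 and 0.341). Among the other called macrophage markers, Lyz2 read -0.07 ± 0.18 (adjusted p = 0.873) under DEHP and Mpeg1 0.85 ± 0.14 (adjusted p = 0.00109). Under DEHP 2 of 22 macrophage markers and 10 of 32 interferon genes were higher in null, where 5.09% of all genes were. None was lower, and the list medians were 0.28 and 0.44. Ehhadh, at -0.15 under corn oil, read -2.75 ± 0.17 under DEHP (adjusted p = 4.84e-05 for the difference).

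**Figure D5:**
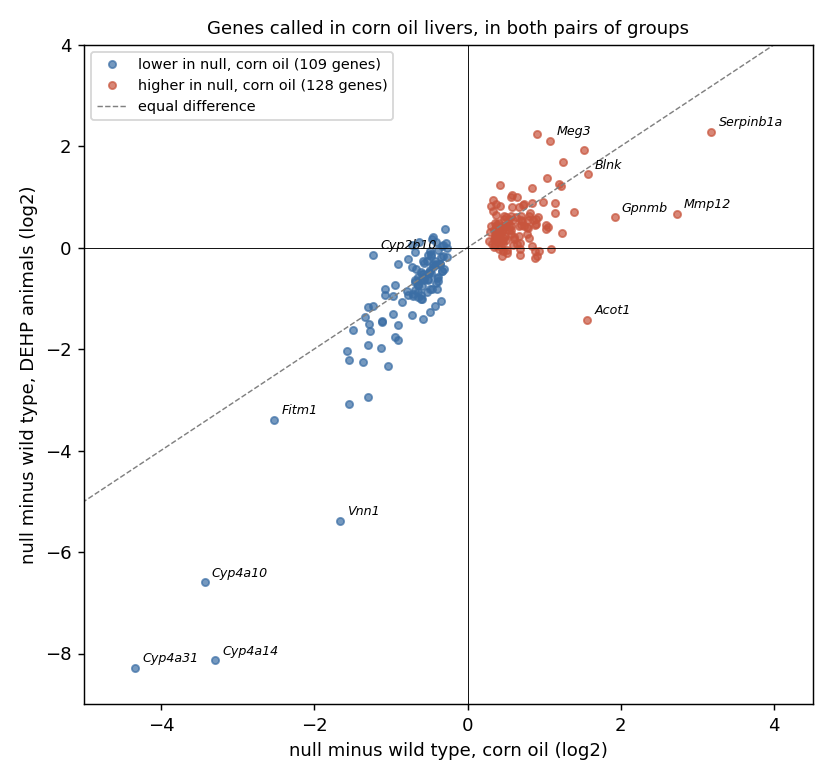
Difference of null minus wild type (log2) under corn oil on the x axis and under DEHP on the y axis for the 237 genes called under corn oil (blue, 109 lower; red, 128 higher); the dashed line marks equal differences. The Cyp4a genes and Vnn1 lie far below the line, Blnk close to it, Mmp12 and Gpnmb (0.67 and 0.60 on the y axis) to its right, and Acot1 in the lower right quadrant.

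Called genes lay on all autosomes and on X, from 0.628% of the tested genes of chromosome 8 to 2.45% (23 of 938) of chromosome 10. Besides the Cyp4a genes, 1 other run of at least 3 called neighbours was found, Unc13b, Atp8b5 and Rusc2 on chromosome 4. Unc13b, a factor of vesicle priming, was higher in null (0.50 ± 0.08, adjusted p = 0.00311), while the lipid flippase Atp8b5 (-0.64 ± 0.12, adjusted p = 0.00904) and Rusc2 (-0.36 ± 0.08, adjusted p = 0.0255) were lower. The 3 differences were 0.60, -0.74 and -0.32 under DEHP. Rusc2 was called in 4 of 8 fits that left out 1 animal, with adjusted p up to 0.0876 without WT-55. Atp8b5 and Rusc2 also lost their call in 1 or more settings other than leaving out an animal. Mean intensities in wild type and null were 34.8 and 49.3 for Unc13b and 28.7 and 18.5 for Atp8b5, where array medians were 44.99 to 47.53.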

How the data were processed

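Liver RNA of 15 mice was measured on single-colour Affymetrix arrays, 1 array per animal. The deposited values are intensities, with medians of 44.4 to 47.53 over the 15 arrays. Any normalization by the authors is not given in the sources used. Per the labels' protocols RNA was isolated with a mirVana kit and 300 ng was amplified with the Affymetrix WT cDNA kit and labelled with biotin. Precision is limited by the number of arrays.

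From these intensities log2 was taken with no further normalization. Of 35494 probe sets 21789 had 1 symbol, 1621 several and 12084 none in GEO's annotation, which can be old, and 21698 matched a RefSeq gene. Where a gene had several probe sets (999 genes), the brightest on average was used. A model with 4 group means was fitted in limma 3.58.1 to the 15 arrays (R 4.3.3; residual degrees of freedom 11, prior 4.68), with Benjamini-Hochberg adjustment over all genes. Tables were handled in Python 3.11.15 with pandas 2.3.3 and numpy 2.4.6, and figures were drawn with matplotlib 3.10.9. On simulated data for the corn oil comparison, over 19938 genes, 88 of 100 genes changed 1.5-fold and 98 of 100 changed 2-fold were called, and 12 of 198 called genes had not been changed. The simulated noise was normal and independent between genes, with 1 SD per gene in all groups. Real groups can differ in spread (for Mmp12 an SD of 1.2 in null and 0.1 in wild type), so these rates need not hold for the data.

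The comparison, the 37 gene lists and the tests were chosen with earlier results of these data known. Named genes were Ppara, Nr1i3, Nr1i2 and Rxra, the 12 largest differences in each direction without overlap, up to 4 called members per list (or 2 of the brightest where none was called), 2 markers per cell type and runs of at least 3 called neighbours with at most 5 tested genes between them. Alternatives were quantile normalization, median centring, an offset of 32, leaving out genes below a mean of 6 log2 units, the mean of probe sets, array weights, a variance trend, a minimum of 1.5-fold, the corn oil arrays alone, and leaving out each animal. Some listed genes are not reported here.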

Additional observations from a re-analysis of the deposited data

Results flagged for a closer look

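In some groups of 4 animals 1 animal lay far from the others by Dixon's criterion, which chance meets in about 1 in 20 groups. In all, 202 groups were tested. The groups named here are all that met the criterion, and they are no more than that rate gives. They are therefore listed as readings and not as traits of an animal. KO-115 read 5.87 for Cyp4a10 (other nulls 4.86 to 5.01), 6.58 for Fitm1 (5.85 to 5.88) and 8.86 for Nr1i2 (8.62 to 8.64). KO-117 read 10.58 for Rxra (10.41 to 10.42), 7.66 for Vldlr (7.99 to 8.05) and 13.82 for the hepatocyte marker Alb (13.92 to 13.94). KO-118 read 5.15 for Cox6b2 (5.36 to 5.40). WT-54 read 10.23 for the matrix gene Dcn (10.51 to 10.56), and WT-55 read 8.91 for the Y-linked gene Eif2s3y (8.78 to 8.80).

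For 12 named genes the genotype difference differed between DEHP and corn oil (DEHP minus corn oil, log2, adjusted p from limma over all genes). It was more negative under DEHP by -4.84 for Cyp4a14 (0.00257), -3.95 for Cyp4a31 (0.00257), -3.71 for Vnn1 (0.000197), -3.18 for Cyp4a10 (0.000157), -2.97 for Acot1 (0.00257), -1.64 for Retsat (0.0161), -1.54 for Cox6b2 (0.000197), -0.91 for Eci1 (0.0185) and -0.81 for Ech1 (0.0174). It was more positive by 1.09 for Cyp2b10 (0.0308), 0.81 for Apoa4 (0.000172) and 0.66 for Esr1 (0.0383).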

How the results depend on the processing

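No paired analysis was possible because the animal numbers of the genotypes are not shared (WT-52 to WT-55 and KO-115 to KO-118). The count of 237 genes was 226 with the corn oil arrays alone (168 of the 237 among them), 265 after quantile normalization (228), 231 after median centring (219), 267 with an offset of 32 (209), 342 without dim genes (203), 235 with the mean of probe sets (232), 306 with array weights (232) and 274 with a variance trend (227). Requiring at least a 1.5-fold difference as well left 60 higher and 58 lower genes. The 1 alternative added after seeing the data, corn oil arrays alone without KO-118, called 227 (158). Leaving out 1 animal gave 159 to 230 called genes and 79 to 132 higher in null. Members of lists then ranged from 5 to 7 for peroxisomal genes lower, from 0 to 1 for mitochondrial genes higher, from 0 to 1 for ω-hydroxylation genes higher, from 3 to 12 for interferon genes higher and from 3 to 5 for macrophage markers higher. Mitochondrial genes higher numbered 2 with the corn oil arrays alone, 2 without dim genes, 0 with the offset and 0 in the added setting. Peroxisomal genes higher numbered 2 with the corn oil arrays alone and 1 in the added setting, and ω-hydroxylation genes higher 1 without dim genes. With the offset, 4 interferon genes and 3 macrophage markers were higher. Over all settings the count of higher members ran from 0 to 6 for stellate and matrix genes and from 0 to 4 for acute phase genes, and that of lower members from 0 to 3 for genes of the urea cycle and amino acid breakdown and from 1 to 3 for CAR targets. The cause of these shifts was not tested. Of 62 called named genes 18 lost their call in 1 or more of 9 settings other than leaving out an animal (Gpnmb, Saa3, Irf7, Vnn1, Pdk4, Hmgcs1, Klb, Pck1, Oat, Glul, Amdhd1, C2, Psmb8, Sort1, Esr1, Col1a2, Atp8b5 and Rusc2), and no named gene changed direction while called.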

Other observations

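Beyond the lists, and chosen after their values were seen, further genes of lipid handling were lower in null liver under corn oil. Hsd17b11, a dehydrogenase found on lipid droplets, was 2.06-fold lower (-1.04 ± 0.12, adjusted p = 0.00017) and read -2.33 ± 0.13 under DEHP. Ephx2, the soluble epoxide hydrolase of fatty acid epoxides, read -0.53 ± 0.09 (adjusted p = 0.00396), the peroxisomal acyl-CoA binding protein Acbd5 -0.47 ± 0.10 (adjusted p = 0.029), the acyl-CoA synthetase Acsf2 -0.64 ± 0.10 (adjusted p = 0.00192), the retinal reductase Dhrs4 -0.60 ± 0.08 (adjusted p = 0.00067) and Adtrp, a hydrolase of fatty acid esters, -0.79 ± 0.10 (adjusted p = 0.000249). The call of Acbd5 held in 2 of 8 fits that left out 1 animal (adjusted p up to 0.11 without WT-54).

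Some genes known from leukocytes and macrophages, outside the marker lists and also chosen after their values were seen, were higher in null under corn oil, while 1 of 28 markers of T, B, natural killer and dendritic cells and 0 of 14 neutrophil markers were called. The chemokine Ccl3 ran from 4.12 to 4.61 in wild type and from 4.86 to 5.97 in null (1.09 ± 0.19, adjusted p = 0.00817). The integrin Itgb2 (0.79 ± 0.14), the oxidase subunit Cybb (0.71 ± 0.14), the lectins Lgals1 (0.91 ± 0.18), Lgals3 (0.59 ± 0.11) and Clec4n (0.69 ± 0.11), and the surface proteins Cd52 (0.88 ± 0.14), Cd53 (0.48 ± 0.10) and Cd63 (0.88 ± 0.17) were called too. Under DEHP Cybb was called (0.53 ± 0.15, adjusted p = 0.0318), while Ccl3, Itgb2, Lgals1, Lgals3, Clec4n, Cd52, Cd53 and Cd63 ran from -0.21 to 0.39 and were not. The test of the change between DEHP and corn oil called Cd52 among these 9 (-1.10, adjusted p = 0.0204).

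The neighbours Glo1 and Btbd9 on chromosome 17 were both lower in null. Glo1, which detoxifies methylglyoxal, read 11.93, 11.94, 12.04 and 11.88 in wild type and 11.01, 10.85, 11.02 and 11.14 in null (-0.94 ± 0.08, adjusted p = 4.95e-06), and a second probe set read -1.0. Btbd9 read -0.50 ± 0.08 (adjusted p = 0.00244), and the next gene Dnah8 -0.24 ± 0.09 (adjusted p = 0.24). Under DEHP, in other animals, Glo1 and Btbd9 read -0.74 ± 0.08 and -0.48 ± 0.08. Receptor status and substrain differ together in both pairs of groups and cannot be told apart here.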
